A study of Mus with 3 samples.

Results

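The 10 genes described here encode enzymes and 1 helper protein of leukotriene and prostaglandin synthesis: Pla2g4a, Alox5, Alox5ap, Ltc4s, Lta4h, Alox15, Ptgs1, Ptgs2, Ptges and Hpgds. They were chosen by symbol, and each symbol matched 1 of the 27998 genes counted in whole mouse lung. Single lung cells were sequenced as 3 libraries: a wild type pool given PBS as the challenge (WT PBS), a wild type pool given the model allergen ovalbumin (WT OVA), and a DJ-1 KO pool given ovalbumin too (DJ-1 KO OVA). Wherever 3 values stand together below, they are given in this order. DJ-1 is the redox-sensitive protein encoded by Park7. All mice were female and 6 to 12 weeks old, and the cells of 3 mice were pooled in each library. With 1 library a group there is no replicate and no test of a condition. Every interval below is an exact 95% interval that covers counting error only, and no difference between libraries can be told apart from a difference between pools of mice.

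Cytosolic phospholipase A2, from Pla2g4a, frees arachidonic acid from membranes. On the leukotriene branch, arachidonate 5-lipoxygenase (Alox5) works with its activating protein at the nuclear membrane (Alox5ap), and its product is turned into leukotriene B4 by Lta4h or into the cysteinyl leukotrienes by Ltc4s. On the prostanoid branch, the cyclooxygenases Ptgs1 and Ptgs2 make prostaglandin H2, which Ptges turns into prostaglandin E2 and Hpgds into prostaglandin D2. Alox15 is a second lipoxygenase of arachidonic and linoleic acid. Cysteinyl leukotrienes and prostaglandin D2 are known as mediators of allergic airway disease, and leukotriene B4 attracts neutrophils.

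After filtering, 3850, 5930 and 4438 cells were kept in the 3 libraries, with medians of 4084, 2060.5 and 1653 UMIs (unique molecular identifiers, each 1 counted RNA molecule). Park7 stood at 135.7, 100.3 and 20.8 CPM (UMIs scaled to 1000000 UMIs of the cells concerned), so it was lowest in the library labelled DJ-1 KO but not at 0, and whether the 3′ end that is counted lies in the deleted stretch is not known here. WT PBS and DJ-1 KO OVA shared 372 cell barcodes, against 6 shared by WT PBS and WT OVA and 5 shared by WT OVA and DJ-1 KO OVA. The smaller cell of each shared pair, 306 in WT PBS and 66 in DJ-1 KO OVA, held a median of 4.91% and 2.15% of its partner's UMIs and was left out. DJ-1 KO OVA also held 784 thymocyte-like cells, 17.7% of its cells, against 29 and 9 in the wild type libraries. Neutrophil-like cells made up 15.4%, 10.7% and 4.799% of the 3 libraries, alveolar macrophage-like cells 1.53%, 3.17% and 5.90%, and alveolar type 2-like cells 7.84%, 12.97% and 6.67%. No cluster was eosinophil-, mast cell-, basophil- or tuft-like. Markers at 0 UMIs in all 3 libraries were Epx and Ear10 (eosinophil list), Tpsb2 and Mrgprb1 (mast cell list) and Prss34 (basophil list). Other markers, such as Siglecf, Cma1 and Kit, were detected. Of 8 markers each, 5, 6 and 5 of the eosinophil list were detected. For the mast cell list 4, 5 and 4 were, and for the basophil list 5, 5 and 6. No cell had 3 eosinophil markers. Cells with 3 markers numbered 1, 0 and 0 for the mast cell list and 1, 3 and 2 for the basophil list. With no cluster of these cell types, these known sources of leukotriene C4 and prostaglandin D2 could not be described.

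**Figure D1:**
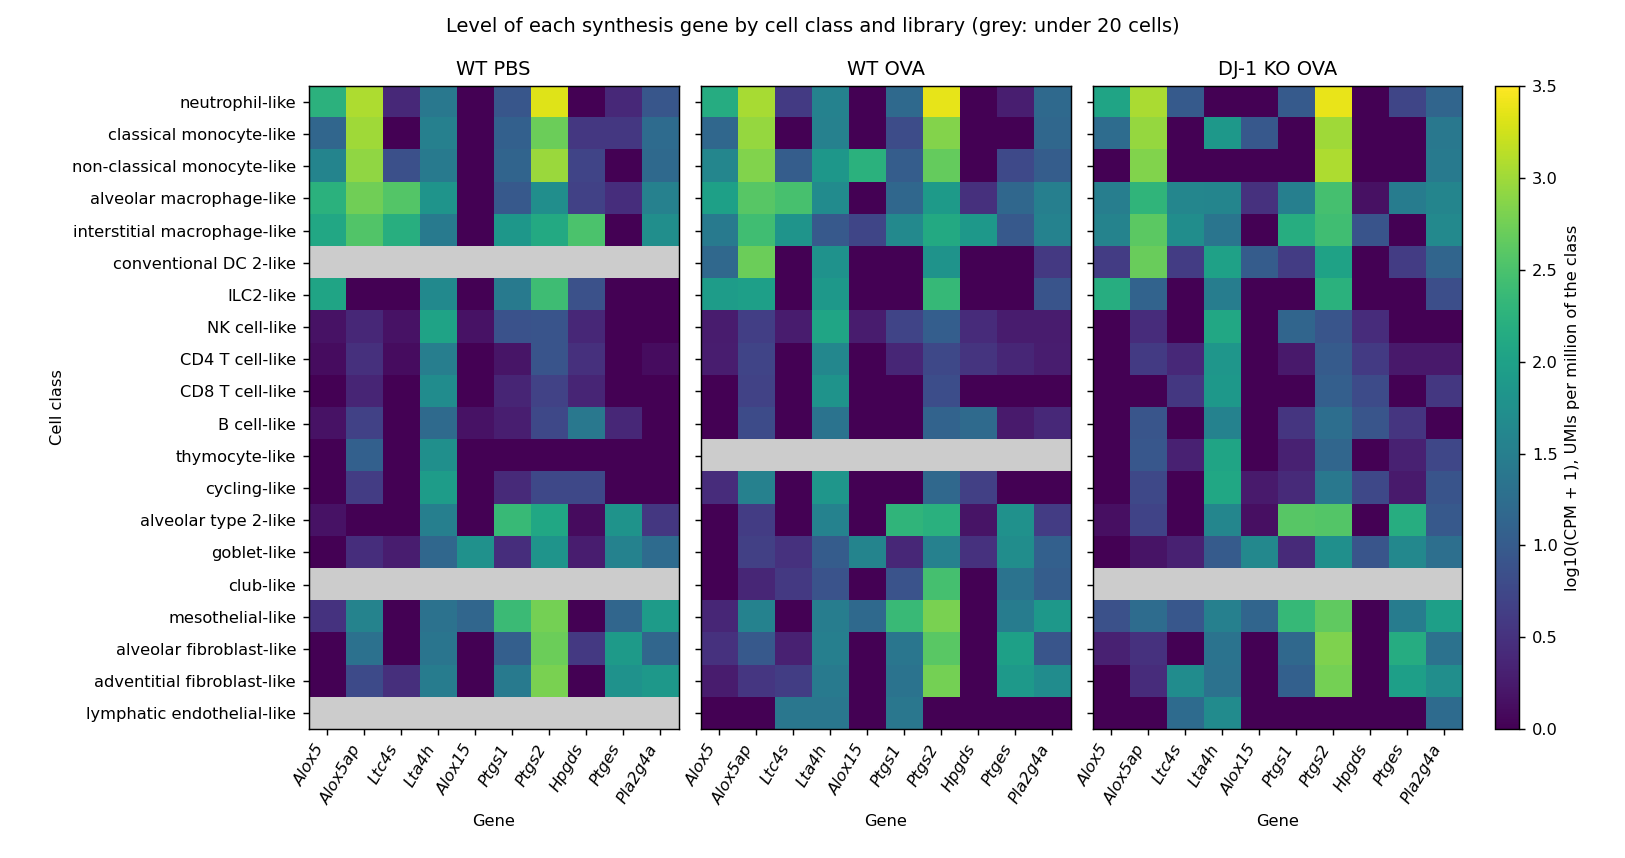
Colour gives log10(CPM + 1) of each of the 10 genes (columns) in 20 cell classes (rows) in each of the 3 libraries (panels); grey rows have under 20 cells. Alox5ap and Ptgs2 are brightest in neutrophil-like cells in each panel, and Ltc4s is brightest in alveolar macrophage-like cells in the 2 wild type panels.

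Levels were compared within a gene across cell classes, since the classes were formed without these 10 genes. Names end in "-like" because they come from marker lists. In each of 7 classes (neutrophil, alveolar macrophage, interstitial macrophage, alveolar type 2, goblet, mesothelial and ILC2), 8 of 8 markers stood over 2-fold above all other cells. The same lists gave the names, so this is no separate check of them, and the fibroblast-like classes were not among the 7. On the leukotriene branch, Alox5, Alox5ap and Ltc4s were highest in myeloid classes in both wild type libraries, while Lta4h was broad. Alox5 (chromosome 6, 116410071 to 116461178, mm10) stood at 178 (159 to 198), 146 (123 to 171) and 108 (70.1 to 160) CPM in neutrophil-like cells of the 3 libraries. In alveolar macrophage-like cells it stood at 171 (147 to 198), 97.4 (84.1 to 112) and 29.99 (23.4 to 37.8) CPM. Both classes together held the larger part of its UMIs, and the neutrophil-like share went from 56.5% to 38.0% and 18.1% while the macrophage share went from 29.6% to 48.8% and 51.4%. ILC2-like cells, the innate lymphocytes of type 2 immunity, stood at 108, 86.3 and 148 CPM from 35, 52 and 74 cells, with intervals that overlap. Interstitial macrophage-like cells stood at 124 (82.1 to 179) CPM in WT PBS and at 25.8 and 36.2 CPM in WT OVA and DJ-1 KO OVA. In alveolar type 2-like cells, taken as background, Alox5 had 2, 0 and 1 UMIs in 302, 769 and 296 cells.

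Alox5ap (chromosome 5, 149265004 to 149288153) was spread over more myeloid classes than its partner. It stood at 1180, 1092 and 1152 CPM in neutrophil-like cells, at 987, 889 and 870 CPM in classical monocyte-like cells and at 817, 679 and 689 CPM in non-classical monocyte-like cells. In each of these 3 classes the intervals of the libraries overlap. Alveolar macrophage-like cells differed from them, with 542 (498 to 588), 391 (364 to 420) and 193 (176 to 212) CPM, intervals that do not overlap. Conventional DC 2-like cells held 520 and 497 CPM in WT OVA and DJ-1 KO OVA, although Alox5 had 14.1 CPM there in WT OVA. Alveolar type 2-like cells, the background, stood at 0, 3.13 and 4.08 CPM.

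Ltc4s (chromosome 11, 50236461 to 50238532), which joins glutathione to leukotriene A4, was concentrated in 1 class in the wild type libraries. Alveolar macrophage-like cells held 88.6% and 91.3% of its UMIs in WT PBS and WT OVA and 64.1% in DJ-1 KO OVA. Their level was 370 (334 to 409) and 307 (283 to 332) CPM in the wild type libraries and 39.3 (31.7 to 48.1) CPM in DJ-1 KO OVA. Interstitial macrophage-like cells, a small class of 30, 46 and 38 cells, stood at 154, 64.6 and 50.7 CPM. B cell-like cells, the background, had 0 UMIs in 632, 923 and 331 cells, where 3 UMIs would be 1.43, 2.29 and 7.34 CPM. Neutrophil-like cells, which held both Alox5 and Alox5ap, held under 2% of the Ltc4s UMIs in each library.

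Cells with UMIs of all 3 of Alox5, Alox5ap and Ltc4s were counted in the alveolar macrophage-like class. They were 51 of 59 cells in WT PBS (86.4%, interval 75.02% to 94.0%), 82 of 188 in WT OVA (43.6%, 36.4% to 51.0%) and 17 of 262 in DJ-1 KO OVA (6.49%, 3.82% to 10.2%). The median depth of the class ran in the same order, with 17163, 10371.5 and 5959 UMIs. After thinning each cell to 1000 UMIs the shares were 0%, 1.10% and 0%, so the order of these shares of all 3 genes cannot be told apart from depth. For Ltc4s alone the thinned shares were 35.1%, 22.1% and 2.12%, and for Alox5ap and Ltc4s together 8.77%, 4.42% and 0.424%.

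Lta4h (chromosome 10, 93453396 to 93484896), the hydrolase that makes leukotriene B4, was broad. NK cell-like cells were highest among the larger wild type classes at 106 and 112 CPM, against 125 CPM in DJ-1 KO OVA, and CD8 T cell-like cells stood at 49.8, 62.0 and 71.4 CPM. Thymocyte-like and cycling cells of DJ-1 KO OVA stood at 108 and 119 CPM and held 11.6% and 18.3% of its UMIs there. Neutrophil-like cells, which carry the first enzymes of the branch, had 24.3 (17.8 to 32.3) and 34.5 (24.0 to 47.9) CPM in WT PBS and WT OVA. In DJ-1 KO OVA they had 0 UMIs of Lta4h in 213 cells, with an interval that ends at 15.97 CPM. That end lies below the interval of WT OVA. Cluster 27, a small part of the class led by Ngp, Camp and Ltf, held 24 of the 47 Lta4h UMIs in 20 cells of WT PBS and 16 of the 35 in 22 cells of WT OVA, and had 2 cells in DJ-1 KO OVA. In cluster 2, which holds all other cells of the class, Lta4h stood at 12.97 and 20.3 CPM in the wild type libraries. DJ-1 KO OVA had 0 UMIs there, with an interval that ends at 16.3 CPM. It overlaps that of WT OVA (12.2 to 31.7 CPM), so a difference inside cluster 2 is not shown.

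Alox15 (chromosome 11, 70344147 to 70390538) lay in goblet-like cells, the mucous cells of the airway, with 57.4 (44.0 to 73.6), 36.9 (27.5 to 48.5) and 42.2 (33.4 to 52.6) CPM. They held 86.1%, 52.0% and 80.6% of its UMIs. Mesothelial-like cells followed at 13.4, 14.8 and 12.8 CPM. A single non-classical monocyte-like cell of WT OVA held 34 of the 98 Alox15 UMIs of that library, while the other 61 cells of its class held none.

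**Figure D2:**
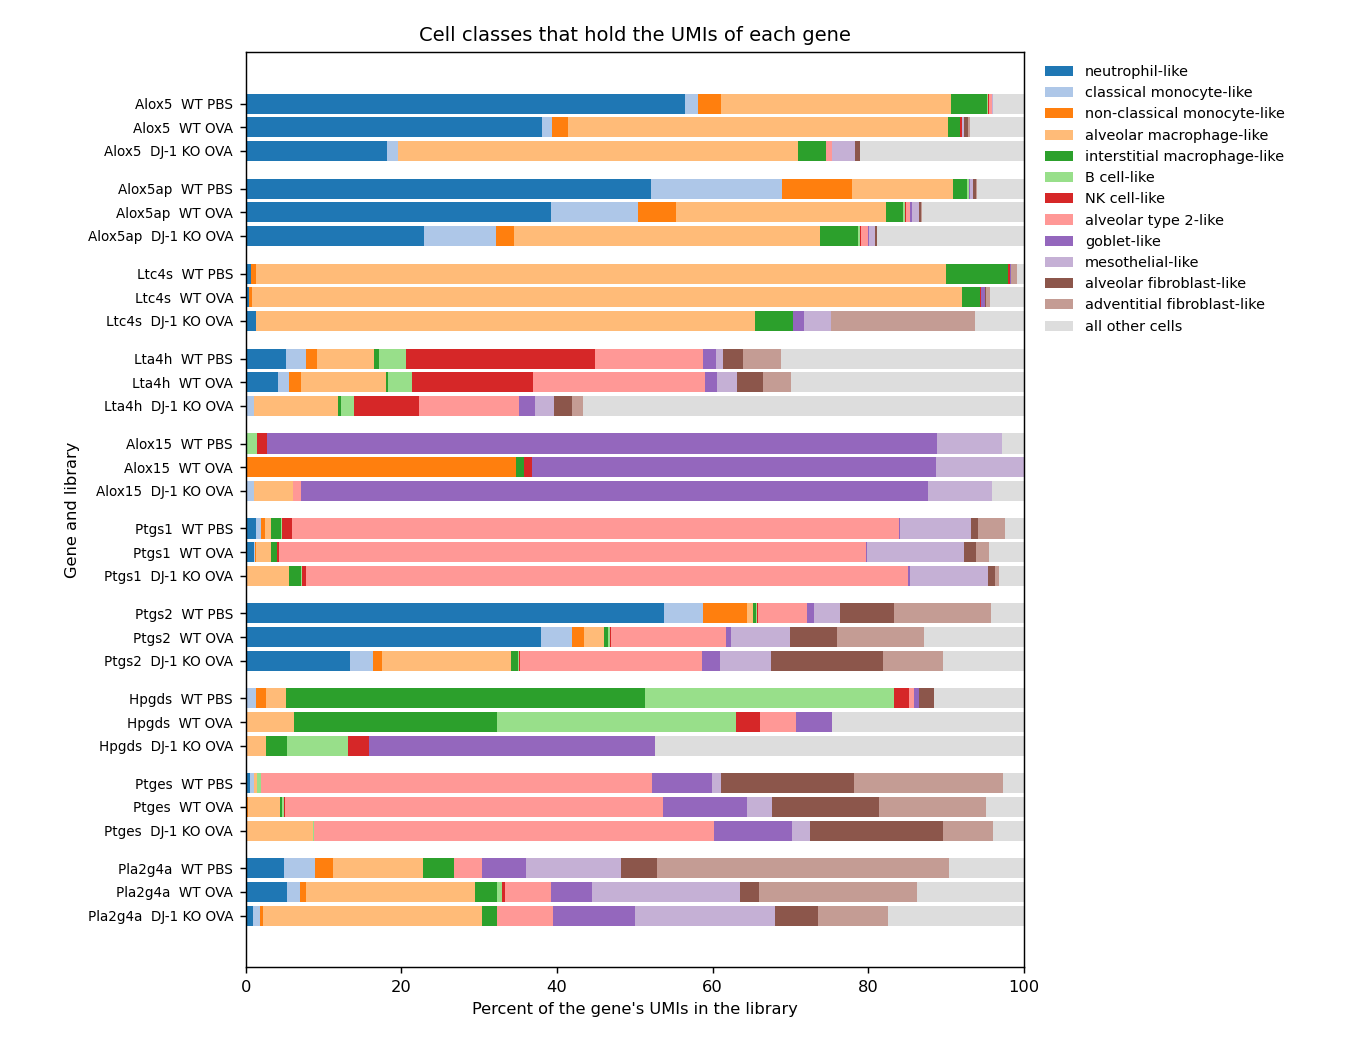
Each bar splits the UMIs of 1 gene in 1 library over 12 cell classes and all other cells (percent, x axis). Blue neutrophil-like parts shorten from WT PBS to DJ-1 KO OVA for Alox5, Alox5ap and Ptgs2, and pink alveolar type 2-like parts hold between 75.4% and 78.1% of Ptgs1 in each library.

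On the prostanoid branch, alveolar type 2-like cells held the largest share of the UMIs of Ptgs1 and Ptges in each library, while Ptgs2 was highest in neutrophil-like cells and Hpgds, in the wild type libraries, in interstitial macrophage-like cells. Ptgs1 (chromosome 2, 36216742 to 36258593), the cyclooxygenase known as constitutive, stood at 229 (214 to 244), 195 (183 to 207) and 393 (370 to 417) CPM in alveolar type 2-like cells, the surfactant-making cells of the alveolus. They held 78.1%, 75.4% and 77.4% of its UMIs. Mesothelial-like cells, second by share of UMIs in each library, stood at 240, 237 and 221 CPM with overlapping intervals. In WT PBS and WT OVA these values lie above those of alveolar type 2-like cells, and the intervals of the 2 classes overlap. Alveolar macrophage-like cells stood at 8.54, 13.8 and 31.7 CPM, and B cell-like cells, the background, had 2, 0 and 1 UMIs.

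Ptgs2 (chromosome 1, 150100031 to 150108234), the inducible cyclooxygenase, was highest in neutrophil-like cells at 2159 (2094 to 2226), 2323 (2231 to 2419) and 2447 (2249 to 2657) CPM. Their share of its UMIs went from 53.7% to 37.9% and 13.4%, beside 594, 636 and 213 such cells, or 15.4%, 10.7% and 4.799% of the cells of the libraries. Adventitial fibroblast-like cells stood at 620, 592 and 589 CPM and alveolar fibroblast-like cells at 513, 401 and 665 CPM. Alveolar type 2-like cells stood at 121 (110 to 132), 168 (157 to 179) and 365 (342 to 388) CPM, and alveolar macrophage-like cells at 53.1 (40.1 to 69.0), 81.0 (68.9 to 94.7) and 296 (275 to 319) CPM. In both classes DJ-1 KO OVA was the highest library and no intervals overlap, apart from those of WT PBS and WT OVA macrophages, which touch over a narrow range. B cell-like cells stood at 4.77, 12.2 and 17.1 CPM.

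Ptges (chromosome 2, 30889471 to 30931020), the inducible prostaglandin E synthase, shared its main class with Ptgs1. Alveolar type 2-like cells stood at 61.2 (53.8 to 69.3), 58.6 (52.4 to 65.4) and 151 (137 to 166) CPM and held 50.2%, 48.6% and 51.5% of its UMIs. Alveolar fibroblast-like cells stood at 80.0, 97.2 and 148 CPM, adventitial fibroblast-like cells at 60.8, 76.1 and 92.5 CPM, and goblet-like cells at 35.2, 51.3 and 42.2 CPM. UMIs of Ptgs1 and Ptges occurred in the same cell in 40.4%, 20.9% and 53.4% of alveolar type 2-like cells. The median depth of these cells was 13936, 6922 and 9225.5 UMIs, and thinned to 1000 UMIs the shares were 0.339%, 0.653% and 2.82%.

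Hpgds (chromosome 6, 65117293 to 65144981), the synthase of prostaglandin D2, had the fewest UMIs of the prostanoid genes, 156, 65 and 38 in the 3 libraries. Interstitial macrophage-like cells led in WT PBS with 72 UMIs and 318 (249 to 400) CPM, against 17 UMIs and 73.2 (42.6 to 117) CPM in WT OVA. In DJ-1 KO OVA that class held 1 UMI in 38 cells. B cell-like cells, meant as background, held Hpgds themselves at 23.8, 15.3 and 7.34 CPM and 32.1% and 30.8% of its UMIs in the wild type libraries, so they give no background for this gene. Goblet-like cells of DJ-1 KO OVA held 14 of the 38 UMIs of that library.

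Pla2g4a (chromosome 1, 149829618 to 149961290), the phospholipase at the head of both branches, was spread over several classes. Mesothelial-like cells stood at 82.8, 72.6 and 92.9 CPM with overlapping intervals, and adventitial fibroblast-like cells at 72.9 (60.2 to 87.6), 49.0 (37.2 to 63.4) and 52.6 (35.2 to 75.5) CPM. Alveolar macrophage-like cells stood at 33.2, 31.8 and 38.4 CPM, again with overlapping intervals. Interstitial macrophage-like cells stood at 52.9, 34.4 and 43.4 CPM. Alveolar fibroblast-like cells were lower, at 13.3 and 7.48 CPM in WT PBS and WT OVA. The largest share of its UMIs lay in adventitial fibroblast-like cells in WT PBS (37.6%). In WT OVA and DJ-1 KO OVA it lay in alveolar macrophage-like cells (21.8% and 28.3%). The gene ends 138741 bases before the start of Ptgs2 in RefSeq for GRCm38.p6, with 2 annotated genes between them. Across 47 pairs of class and library in 20 classes, the log2 levels of Ptgs2 and Pla2g4a had a Pearson r of 0.69, and those of Alox5 and Alox5ap a Pearson r of 0.76. These are descriptions over points that share libraries and depth.

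The same measure was used to find the gene whose class levels were most like those of each member. For Alox5ap it was Nfam1 (r = 0.966), for Ltc4s the unnamed model Gm13571 (r = 0.922) followed by Ear1 (r = 0.916), and for Ptgs1 it was Gja1 (r = 0.917). Arhgef17 was closest to Ptges (r = 0.944), Thbs1 to Ptgs2 (r = 0.890), Mctp1 to Alox5 (r = 0.883) and Ccl2 to Pla2g4a (r = 0.857). Lta4h, Hpgds and Alox15 had no gene above 0.77 (Ubxn1 at 0.769, Fcrl1 at 0.755 and Tnfsf13os at 0.746).

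The levels over all kept cells of a library combine how many cells of a class there are and how much of the RNA each holds, and these cannot be told apart in such a sum. WT OVA enters both comparisons. In WT OVA against WT PBS, Ltc4s stood at 28.6 against 18.03 CPM (ratio 1.58, 1.40 to 1.79) and Hpgds at 2.83 against 6.39 CPM (ratio 0.443, 0.327 to 0.596). These were the 1 of 10 members above and the 1 below 1.5-fold, where 10.3% of 14944 genes with at least 20 UMIs were above and 7.76% below. The median log2 ratio of the members was -0.01, and that of all those genes 0.02. Counts of this size, near the background, are no result about the genes as a group.

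In DJ-1 KO OVA against WT OVA, 3 members were lower past 1.5-fold, and they were steps of the leukotriene branch. Alox5 stood at 8.09 against 17.0 CPM (ratio 0.477, 0.390 to 0.581), Alox5ap at 68.3 against 123 CPM (0.553, 0.516 to 0.593) and Ltc4s at 8.50 against 28.6 CPM (0.298, 0.247 to 0.357). Ptges, at 46.3 against 28.7 CPM (ratio 1.62, 1.46 to 1.80), and Pla2g4a, at 18.9 against 12.4 CPM (1.52, 1.29 to 1.79), were the 2 above 1.5-fold. Of 14710 genes, 12.3% were above and 9.1% below the same limit. The median log2 ratio was 0.12 for the 10 members and 0.07 for all genes. When every cell was weighted alike, Ltc4s stood at a ratio of 0.513, Ptges at 1.38 and Pla2g4a at 1.19, so the last 2 no longer passed the limit.

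**Figure D3:**
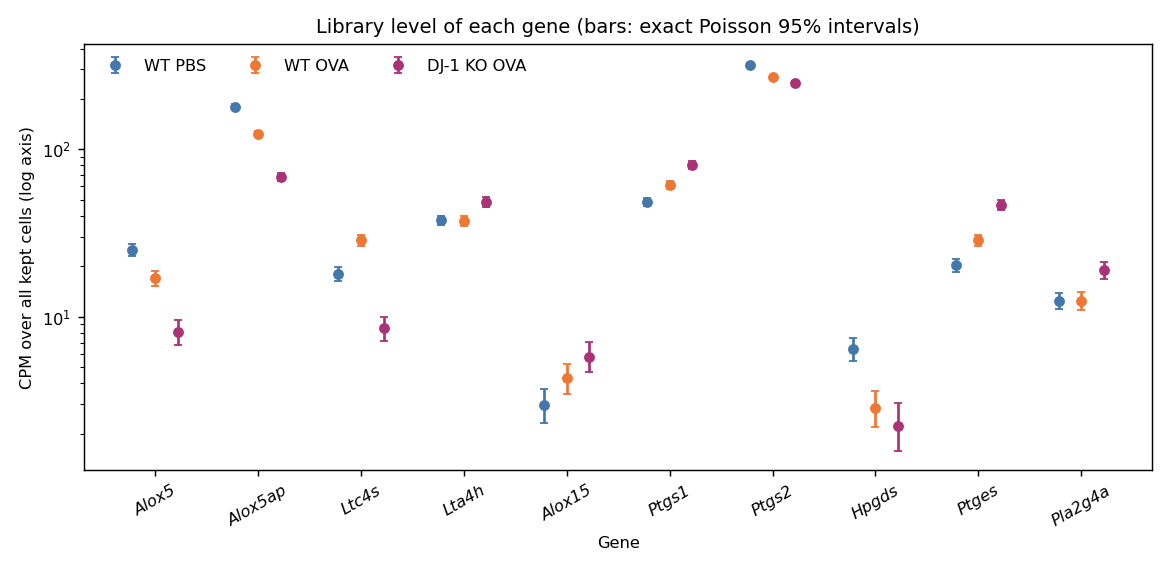
Points give the CPM of each gene over all kept cells of a library (log y axis), with exact Poisson 95% intervals as bars. Alox5, Alox5ap and Ltc4s sit lowest in DJ-1 KO OVA at 8.09, 68.3 and 8.50 CPM, and Ptgs1 and Ptges sit highest there at 80.4 and 46.3 CPM.

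The other 4 members stayed within 1.5-fold in both comparisons. Lta4h stood at 37.6, 37.2 and 48.5 CPM, Ptgs1 at 48.6, 61.3 and 80.4 CPM and Ptgs2 at 319, 271 and 247 CPM. Alox15 stood at 2.95, 4.27 and 5.75 CPM. Without the WT OVA cell that holds 34 UMIs, its level in that library was 2.79 CPM, and the ratio of WT OVA to WT PBS changed from 1.45 to 0.946 and that of DJ-1 KO OVA to WT OVA from 1.34 to 2.06. Some library ratios also depended on the shared barcodes. With both cells of every shared pair left out, the Alox15 ratios were 5.86 and 0.402, Lta4h in DJ-1 KO OVA against WT OVA was 1.69 instead of 1.30, and Ptges and Pla2g4a were 1.35 and 1.34. Keeping the smaller cells left the median log2 ratio of the members at -0.01 and 0.12. Hpgds, past the limit in the first comparison, had a ratio of 0.786 (0.513 to 1.19) in the second, and of 0.505 with both cells left out.

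To set class numbers apart from class levels, the class levels of the second library of each comparison were weighted by the shares of UMIs that the first library's classes hold. For Ltc4s in DJ-1 KO OVA against WT OVA this gave a ratio of 1.56, since macrophage-like cells were more frequent there, against 0.298 as measured. For Alox5 it gave 1.05 against 0.477, for Alox5ap 0.812 against 0.553, for Ptgs1 0.752 against 1.31 and for Ptges 0.935 against 1.62. For WT OVA against WT PBS it gave 1.86 for Ltc4s against 1.58 as measured, and 0.966 for Hpgds against 0.443. Class shares alone thus gave a ratio on the other side of 1 from the measured one for Ltc4s, Alox5, Ptgs1 and Ptges in DJ-1 KO OVA against WT OVA. Each class was taken whole. A shift in the mix of cells inside a class, such as that of alveolar macrophage-like cells described below, therefore counts here as a difference in level.

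**Figure D4:**
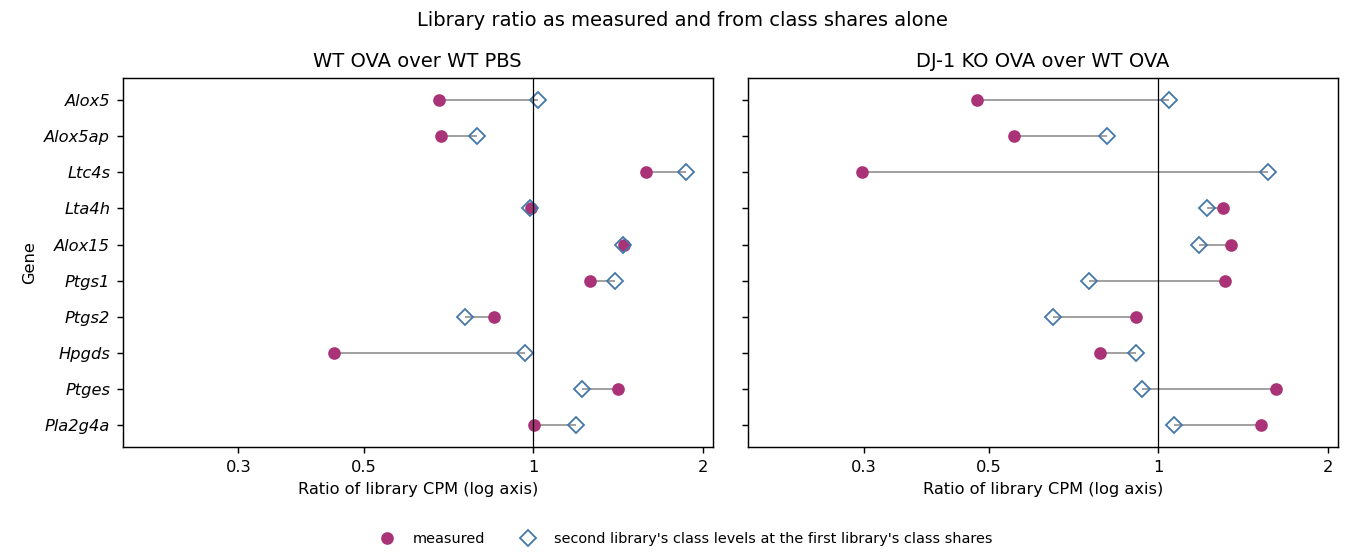
Filled points give the measured ratio of library CPM and open diamonds the ratio that class shares alone would give with the second library's class levels (log x axis), for both comparisons. For Ltc4s in the right panel they lie at 0.298 and 1.56.

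Within alveolar macrophage-like cells, Ltc4s, Alox5 and Alox5ap were lower and Ptgs2, Ptgs1 and Ptges higher in the DJ-1 KO OVA library when set against WT OVA. Ltc4s had a ratio of 0.128 (0.102 to 0.160), Alox5 of 0.308 (0.231 to 0.406) and Alox5ap of 0.494 (0.439 to 0.556). Ptgs2 had a ratio of 3.65 (3.07 to 4.37), Ptgs1 of 2.29 (1.46 to 3.70) and Ptges of 2.04 (1.29 to 3.32). Lta4h at 0.788 (0.583 to 1.07) and Pla2g4a at 1.21 (0.866 to 1.70) stayed within 1.5-fold, and Hpgds had 1 against 4 UMIs. So 6 of the 8 members with at least 20 UMIs passed 1.5-fold, where 30.2% of 9209 genes did in the same cells. With both cells of every shared barcode left out, Alox5 stood at a ratio of 0.0902 (0.0384 to 0.181). With cells weighted alike the Ptges ratio was 1.25.

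These macrophages were not the same mix in each library. Sub-clustering gave AM1, led by Ear1, with 35, 105 and 19 cells, and AM0, led by Cdh1 and Mmp12, with 0, 17 and 147 cells. AM3, led by C1qa, had 0, 14 and 38 cells. AM2, led by lymphocyte genes such as Ccl5 and Cd3g, had 18, 36 and 48 cells, and AM4, led by haemoglobin and cell cycle genes, 6, 16 and 10. Ltc4s stood at 485 (427 to 549), 408 (370 to 449) and 201 (125 to 308) CPM in AM1. In AM0 it stood at 42.5 (15.6 to 92.5) CPM in WT OVA and at 26.6 (18.9 to 36.3) CPM in DJ-1 KO OVA. The sub-clusters thus differed from each other in Ltc4s within 1 library, and AM1 of DJ-1 KO OVA lay below AM1 of WT OVA with a ratio of 0.494 (0.303 to 0.765). Alox5ap within AM1 had a ratio of 0.853 (0.604 to 1.17). Alox5 there had one of 0.161 (0.0192 to 0.593), from 2 UMIs in DJ-1 KO OVA. Ptgs2 was low in AM1, at 19.3, 44.7 and 9.59 CPM, a ratio of 0.215 (0.00532 to 1.26) between the last 2 libraries and so on the other side of 1 from the whole class. It stood at 262 and 239 CPM in AM0 and 537 and 1305 CPM in AM3 of WT OVA and DJ-1 KO OVA. Without AM2 and AM4 the class ratios of Ltc4s, Alox5, Alox5ap and Ptgs2 were 0.113, 0.279, 0.486 and 2.94.

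Between WT PBS and WT OVA, alveolar macrophage-like cells gave ratios closer to 1 for Alox5, Alox5ap and Ltc4s than the comparison of the OVA libraries did. Alox5 had a ratio of 0.570 (0.463 to 0.703), Alox5ap of 0.722 (0.647 to 0.806) and Ltc4s of 0.829 (0.728 to 0.944), while Lta4h, at 0.750 (0.542 to 1.04), was not closer to 1. Ptgs2 had a ratio of 1.52 (1.12 to 2.11), Ptgs1 of 1.62 (0.740 to 3.92) and Ptges, with 27 against 2 UMIs, of 7.30 (1.83 to 63.3). In all, 4 of 8 members passed 1.5-fold, where 26.6% of 8613 genes did. With the smaller cells of shared barcodes kept, the Ptgs2 ratio was 1.26, within 1.5-fold, and the Ptges ratio 3.098. With both cells of every shared barcode left out, the Ptgs2 ratio was 2.42 and the Ptgs1 ratio 3.58. Without AM2 and AM4 the ratios were 5.38 (2.83 to 11.5) for Ptgs2, 3.15 (0.951 to 16.4) for Ptgs1 and 3.49 (0.828 to 31.1) for Ptges. The 35 WT PBS cells left were all AM1, while the 136 of WT OVA also held AM0 and AM3. In AM1 alone the ratios were 2.31 (1.15 to 5.14), 3.35 (0.994 to 17.6) and 3.77 (0.876 to 34.0).

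Within alveolar type 2-like cells, DJ-1 KO OVA was higher than WT OVA for Ptgs1, Ptgs2, Ptges and Pla2g4a, while Hpgds had 0 against 3 UMIs. Ptgs1 had a ratio of 2.02 (1.85 to 2.20), Ptgs2 of 2.17 (1.98 to 2.38), Ptges of 2.57 (2.22 to 2.99) and Pla2g4a, with 23 against 17 UMIs, of 2.73 (1.39 to 5.44). With cells weighted alike the Pla2g4a ratio was 1.57. These were 4 of 6 members past 1.5-fold, where 26.4% of 10682 genes passed. For WT OVA against WT PBS 0 of 5 members passed 1.5-fold, where 15.4% of 10752 genes did. Different clusters hold most of the class in the libraries: cluster 4, led by Sftpc and Sftpb, had 300, 684 and 68 cells, and cluster 14, led by Slc26a4, Chia1 and Retnla, had 2, 85 and 228 cells. Inside cluster 4 the ratios of DJ-1 KO OVA to WT OVA were 1.46 (1.199 to 1.77) for Ptgs1, 1.52 (1.23 to 1.86) for Ptgs2 and 1.87 (1.32 to 2.58) for Ptges. Inside cluster 14 they were 1.75 (1.501 to 2.06), 2.01 (1.69 to 2.40) and 1.86 (1.44 to 2.44). These 3 genes were thus higher in DJ-1 KO OVA inside each cluster too, with Ptgs1 in cluster 4 within 1.5-fold. Pla2g4a was not: its ratio was 0.813 in cluster 4, from 1 against 13 UMIs, and 1.97 (0.669 to 7.87) in cluster 14, with an interval that holds 1.

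**Figure D5:**
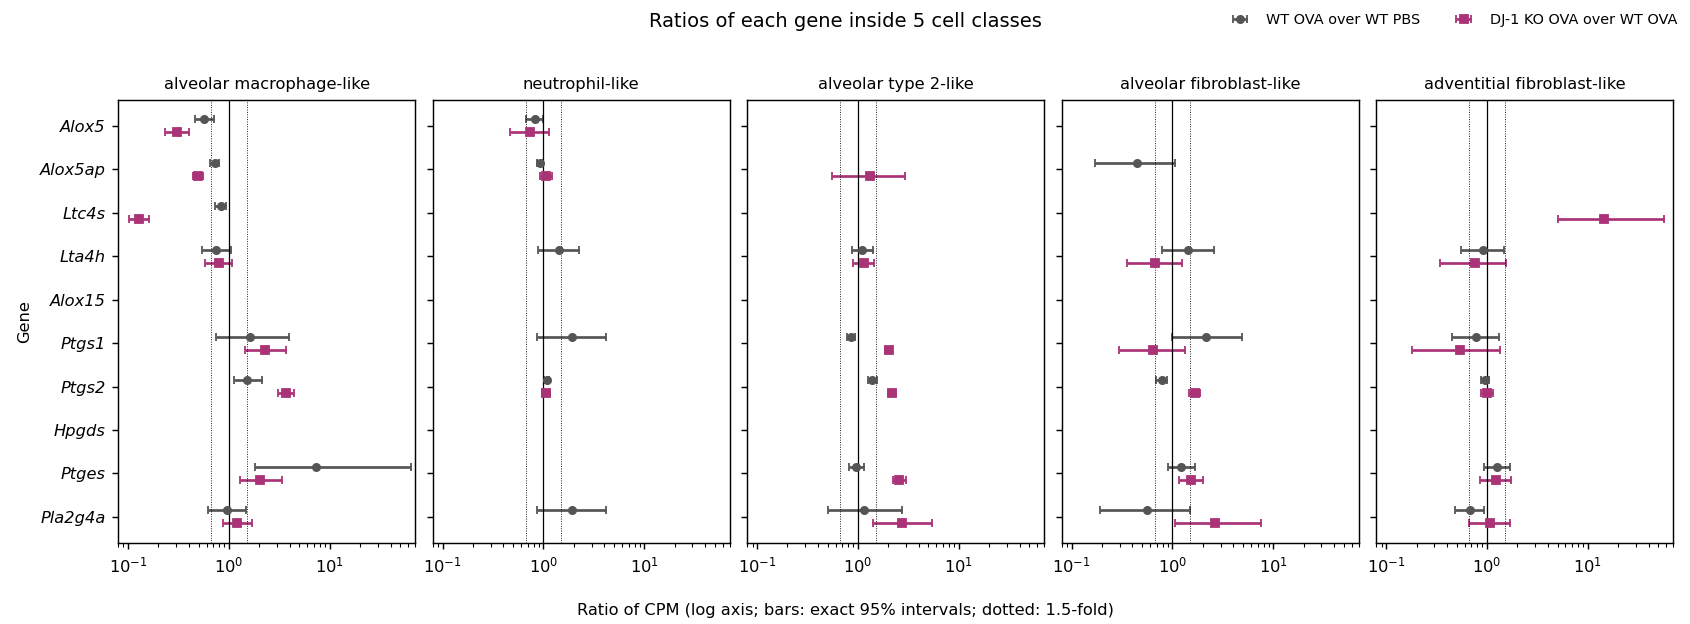
Ratios of CPM in 5 cell classes (log x axis) with exact 95% intervals, for WT OVA over WT PBS (grey circles) and DJ-1 KO OVA over WT OVA (purple squares), for members with at least 20 UMIs and none at 0. In macrophage-like cells the purple squares run from 0.128 for Ltc4s to 3.65 for Ptgs2, and in neutrophil-like cells the Alox5ap and Ptgs2 squares lie at 1.05.

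Neutrophil-like cells showed smaller differences. In DJ-1 KO OVA against WT OVA, Alox5 had a ratio of 0.743 (0.466 to 1.14), Alox5ap of 1.05 (0.919 to 1.21) and Ptgs2 of 1.05 (0.959 to 1.15). Lta4h, at 0 UMIs in DJ-1 KO OVA, was the 1 of 4 members past 1.5-fold, where 37.2% of 4231 genes passed. Inside cluster 2 the Lta4h intervals of these libraries overlap, as given above. For WT OVA against WT PBS, Ptgs1 and Pla2g4a, each with 15 UMIs in both libraries and a ratio of 1.91 (0.869 to 4.19), were the 2 of 6 past it, where 24.9% of 5794 genes passed.

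Fibroblast-like cells were described in DJ-1 KO OVA against WT OVA. The names alveolar and adventitial were close calls in some clusters, so the split between these classes is uncertain. The alveolar and adventitial marker scores were 2.46 and 2.09 in the cluster led by Serpina3n and 2.18 and 1.82 in that led by Saa3. In the cluster led by Mmp2, named adventitial, they were 1.58 and 2.22. In alveolar fibroblast-like cells Ptgs2 had a ratio of 1.66 (1.46 to 1.89), Ptges of 1.52 (1.16 to 2.01) and Pla2g4a, with 18 against 7 UMIs, of 2.64 (1.05 to 7.47), and Ptgs1 had one of 0.635 (0.292 to 1.33). These were 4 of 5 members, where 24.5% of 8332 genes passed. Most WT OVA cells of the class lay in the cluster led by Npnt (87, 78 and 42 cells) and most DJ-1 KO OVA cells in the one led by Serpina3n (6, 56 and 94 cells). Inside the Npnt cluster the direction turned, with Ptgs2 at 54.6 (20.02 to 119) CPM in DJ-1 KO OVA against 274 (226 to 329) CPM in WT OVA, a ratio of 0.199 (0.0716 to 0.447), and Ptges at a ratio of 0.698 (0.284 to 1.502). Inside the Serpina3n cluster the ratios were 1.47 (1.24 to 1.75) for Ptgs2 and 1.35 (0.919 to 2.01) for Ptges, both within 1.5-fold. Inside the smallest cluster of the class, with 20 against 21 cells and led by Saa3, they were 1.38 (1.03 to 1.85) and 3.29 (1.54 to 7.82). With every cell thinned to 1000 UMIs the Ptges ratio was 1.11. With each library clustered on its own the Ptgs1 ratio was 1.38, on the other side of 1. In adventitial fibroblast-like cells Ptgs2 had a ratio of 0.996 (0.871 to 1.14), but the clusters of the class differed. The cluster led by Lum and Dcn held 87 of 118 cells in DJ-1 KO OVA and 135 of 279 in WT OVA, and Ptgs2 stood there at 679 (597 to 770) against 1213 (1115 to 1318) CPM, a ratio of 0.560 (0.480 to 0.652). In the cluster led by Mmp2, with 20 against 68 cells, its ratio was 2.56 (1.84 to 3.56). Ltc4s was the member that stood apart in this class, with 27 UMIs in 118 cells of DJ-1 KO OVA against 4 in 279 cells of WT OVA (ratio 14.5, 5.05 to 56.9). Only 10 of the 118 cells held these UMIs, with up to 5 in 1 cell, and the interval leaves out such clumping. All 27 UMIs lay in the Lum and Dcn cluster, where the ratio was 11.5 (3.54 to 59.2). Ltc4s and Ptgs1, at 0.536 (0.179 to 1.35), were the 2 of 6 members past 1.5-fold in the class, where 29.4% of 8085 genes passed. With each library clustered on its own the Ltc4s ratio was 4.60. With both cells of every shared barcode left out the Ptgs1 ratio was 0.991.

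A further 58 genes of the pathway, chosen by role, were read over all kept cells. Of 45 with at least 20 UMIs, 5 were above and 3 below 1.5-fold in WT OVA against WT PBS, beside 10.3% and 7.76% of all genes. Of 47, 8 were above and 6 below in DJ-1 KO OVA against WT OVA, beside 12.3% and 9.1%. Their median log2 ratios were 0.09 and 0.08. Among receptors, Cysltr1, the receptor of cysteinyl leukotrienes, stood at 3.85, 3.05 and 6.28 CPM (DJ-1 KO OVA against WT OVA 2.06, 1.51 to 2.82). Ltb4r1, the receptor of leukotriene B4, stood at 16.7, 17.4 and 19.7 CPM. Of the prostanoid receptors, Ptgir stood at 11.9 against 5.97 CPM (1.99, 1.60 to 2.49) and Tbxa2r at 9.27 against 4.71 CPM (1.97, 1.53 to 2.54), the latter with 68 of its 158 UMIs in thymocyte-like cells of DJ-1 KO OVA. Ptgdr, a receptor of prostaglandin D2, had 0 UMIs in both wild type libraries and 20 in DJ-1 KO OVA, 18 of them in 8 goblet-like cells.

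Among enzymes, the phospholipase Pla2g4c differed most, at 0.246, 0.959 and 20.1 CPM (DJ-1 KO OVA against WT OVA 20.9, 13.6 to 33.8). Goblet-like cells held 330 of its 342 UMIs in DJ-1 KO OVA, in 47 of 74 cells, against 17 UMIs in 5 of 57 cells of WT OVA and 0 in 23 cells of WT PBS. Alox12e, a further lipoxygenase, stood at 31.0 (23.5 to 40.0) CPM in goblet-like cells of DJ-1 KO OVA against 7.95 (3.97 to 14.2) CPM in WT OVA. Tbxas1, the thromboxane synthase, stood at 24.9 against 14.4 CPM over all cells (1.73, 1.49 to 2.001), but at 119, 125 and 149 CPM inside alveolar macrophage-like cells. The secreted phospholipase Pla2g1b stood at 18.9 against 49.0 CPM (0.386, 0.340 to 0.438) and at 195, 187 and 109 CPM inside alveolar type 2-like cells, a direction opposite to that of Ptgs1, Ptgs2 and Ptges in the same class. Cyp4f18, which inactivates leukotriene B4, stood at 35.4 against 76.8 CPM over all cells (0.462, 0.420 to 0.507), while inside neutrophil-like cells it stood at 733, 977 and 987 CPM.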

How the data were processed

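Whole lung cells of 3 libraries were measured with the 10x 3′ v3 kit, per the labels' protocols. The authors deposited UMI counts of each gene in each barcode, not normalized, made with Cell Ranger and STAR on mm10, per the submitters' processing notes (software version 3.1.0, per the file headers); total counts were 26548669, 24438516 and 17339386 in the order WT PBS, WT OVA, DJ-1 KO OVA. Every barcode has at least 500 UMIs. WT PBS was grouped by its treatment label, although its title names an OVA challenge.

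Filters were at least 200 genes per cell and no more than 20% of UMIs from mitochondrial genes. The smaller cell of each barcode shared by WT PBS and DJ-1 KO OVA was left out, and 58, 162 and 3 doublets were removed with Scrublet (expected rate 0.06) in scanpy 1.11.5. The 3 in DJ-1 KO OVA are too few for that caller to have worked there. Cells were clustered together without the 10 members and 58 further pathway genes (2000 variable genes, 30 components, 15 neighbours, Leiden resolution 1, leidenalg 0.10.2), giving 47 clusters, of which 43 were named into 29 classes from 40 marker lists (309 of 320 genes found). Some naming details were set after the clusters were seen: a stricter bar on leading genes of another class, no ILC2 name beside CD4 T cell genes, and sub-clustering of close calls.

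Sums of UMIs over the cells of a class in a library were scaled to CPM. Levels have exact Poisson intervals, shares Clopper-Pearson intervals and ratios exact conditional binomial intervals (SciPy 1.17.1). The ratio intervals were tried on simulated Poisson counts only. Such counts follow the model of the intervals and leave out the clumping of UMIs in single cells, so the trial says nothing about that. UMIs stand for molecules, and intervals and floors (3 UMIs) cover counting error only. Ratios within a class needed 50 cells in both libraries and 20 UMIs, levels 20 cells. These limits were not applied to single clusters and macrophage sub-clusters, whose values can rest on fewer cells and UMIs. For thinned shares each cell was thinned to 1000 UMIs, with 135, 392 and 971 shallower cells left out. Likeness of pattern is Pearson's r of log2(CPM + 10) over 47 class levels. Named genes are the 10 members, further pathway genes past 1.5-fold or of a named role, and the genes most like each member. Gene positions are those of RefSeq for GRCm38.p6. The members, lists and settings were chosen with earlier results of these data known.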

Additional observations from a re-analysis of the deposited data

How the results depend on the processing

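Among ratios past 1.5-fold with a counting interval that leaves out 1, Ptgs2 and Ptgs1 in alveolar macrophage-like cells of DJ-1 KO OVA against WT OVA changed their side of 1, to 0.215 and 0 (0 against 20 UMIs), when the AM1 sub-cluster was used alone. Inside 1 cluster of their class, with 20 cells or more in both libraries, Ptgs2 and Ptges in alveolar fibroblast-like cells did so too, at 0.199 and 0.698 in the Npnt cluster, as did Pla2g4a in alveolar type 2-like cells, at 0.813 in cluster 4, and Ltc4s in adventitial fibroblast-like cells, at 0 against 1 UMIs in the Mmp2 cluster. These splits were chosen after seeing the data, like the removal of AM2 and AM4, of the Alox15-rich cell and the doublet score limit of 0.25. None did under the other filters, cell weights, scalings and clusterings tried. Leaving the splits by cluster and that cell aside, of 218 ratios over all kept cells recomputed under the alternatives, 173 stayed inside the counting interval of the reported value and 45 did not; inside classes the numbers were 895 and 60 of 955, and for the share of UMIs in the leading class 223 and 76 of 299. In WT OVA against WT PBS the members above and below 1.5-fold, 1 and 1 as reported, were 2 and 3 with both cells of every shared barcode left out, 2 and 2 at no more than 10% mitochondrial UMIs, and 2 and 2 of 9 with every cell thinned to 1000 UMIs. There were 2 below with at least 500 genes per cell, with doublets kept, or with cells weighted alike, and 0 above at a 2-fold limit. In DJ-1 KO OVA against WT OVA, 2 and 3 as reported, they were 1 and 5 with both cells of every shared barcode left out (median log2 ratio -0.34) and 1 and 5 of 9 when thinned (-0.66). The members above and below were 1 and 4 with cells weighted alike (-0.19), 1 and 3 with scaling by the median ratio of genes, and 0 and 2 at a 2-fold limit. The cause of each was not tested. When thinned, Ltc4s and Hpgds in WT OVA against WT PBS stood at ratios of 1.12 and 0.758. No paired analysis was possible because each group has 1 library. Depth limits Hpgds, Alox15 and every gene in classes of under 50 cells.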
